A study of Mus musculus with 20 samples.

Results

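The 5 casein genes of the mouse, Csn1s1, Csn2, Csn1s2a, Csn1s2b and Csn3, were followed across 20 mammary glands that were taken before any tumor was found in them. All probe sets that the array's annotation assigns to these symbols were used, 11 of the 45101 on the array. The main probe set of each gene was the one with the highest mean over the 20 arrays. Of the 18194 genes with a named probe set, 12499 passed a filter on dim values, a level above 6.85 (the median of all values, log2) on at least 3 arrays. Csn1s1, Csn2, Csn1s2a and Csn3 passed it, and Csn1s2b, above that level on 1 array, did not.

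Caseins are the main proteins of milk and are made by the secretory luminal cells of the mammary alveoli. Their genes lie in 1 cluster and are switched on in pregnancy and lactation by prolactin, which acts through the kinase Jak2 and the transcription factor Stat5, together with glucocorticoid and with factors such as Elf5. The alpha and beta caseins carry phosphate groups that bind calcium, and kappa-casein coats the casein micelle and keeps it in suspension. Casein transcripts are also measured in glands of mice that are not pregnant, and serve there as a mark of secretory differentiation.

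All animals were FVB/N females of the NRL-TGFα line 1372-1 TgN(Nrl-tgfalpha)29EPS, heterozygous for the transgene, so that no gland came from a wild-type animal. The NRL (neu-related lipocalin) promoter drives transforming growth factor alpha, a ligand of the EGF receptor, in mammary epithelium. An implant with 5 mg tamoxifen, a selective oestrogen receptor modulator, or with carrier alone (placebo) was placed at 8.5 weeks of age. A number 4 gland was removed at 20.5 to 21 weeks, 4 weeks after the end of treatment, and the animals were then watched for mammary tumors for at most 2 years. The 4 groups were placebo with a later tumor (7 glands), placebo without (3), tamoxifen with a later tumor (3) and tamoxifen without (7), with 1 array per animal, and each animal goes by its treatment and number. Adipoq (13.79 to 14.21), Epcam (9.58 to 12.33), Krt18 (9.44 to 11.60) and Krt14 (7.27 to 10.01), which mark adipocytes, epithelium, luminal and basal cells, were above the filter level in every gland. Placebo animals 8, 7 and 9, all with later tumors, stood apart on the first principal component of all probe sets (63.59, 45.33 and 18.15, against 8.79 for the next). The casein outcome results that they carry are also given without them.

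The casein genes lie on mouse chromosome 5 and span 266 kb of the GRCm38.p6 assembly. Csn1s1 (Entrez ID 12990, alpha-s1-casein) runs from 87666208 to 87682578, Csn2 (12991, beta-casein) from 87692619 to 87699429 and Csn1s2a (12993, an alpha-s2-like casein) from 87774450 to 87788798. Csn1s2b (12992, the second alpha-s2-like casein) runs from 87808121 to 87824421 and Csn3 (12994, kappa-casein) from 87925579 to 87932550. The upstream sequences of Csn1s1, Csn2 and Csn1s2a, the genes whose levels varied most and moved together in placebo glands with a later tumor, are shown, as RefSeq gives them for GRCm38.p6. Each is the 250 bases before the table's transcription start, written 5′ to 3′ on the gene's own strand, at chr5:87665958-87666207 (plus strand) for Csn1s1, chr5:87699426-87699675 (minus strand) for Csn2 and chr5:87774200-87774449 (plus strand) for Csn1s2a. The Csn2 window overlaps the gene range given above from 87699426 to 87699429, so the start used for it is not the gene end given there. Capitals mark matches to TTCNNNGAA, the palindromic core of Stat5 binding sites, which reads the same on both strands.
Csn1s1: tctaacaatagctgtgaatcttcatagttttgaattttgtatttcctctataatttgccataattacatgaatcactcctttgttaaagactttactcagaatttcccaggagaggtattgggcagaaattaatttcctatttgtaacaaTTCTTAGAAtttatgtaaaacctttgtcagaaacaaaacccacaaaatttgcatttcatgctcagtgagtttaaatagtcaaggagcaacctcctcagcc
Csn2: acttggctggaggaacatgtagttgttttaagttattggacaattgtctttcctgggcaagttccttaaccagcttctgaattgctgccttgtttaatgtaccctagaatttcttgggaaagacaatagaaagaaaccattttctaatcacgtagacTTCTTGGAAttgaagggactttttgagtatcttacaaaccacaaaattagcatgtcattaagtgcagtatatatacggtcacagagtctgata
Csn1s2a: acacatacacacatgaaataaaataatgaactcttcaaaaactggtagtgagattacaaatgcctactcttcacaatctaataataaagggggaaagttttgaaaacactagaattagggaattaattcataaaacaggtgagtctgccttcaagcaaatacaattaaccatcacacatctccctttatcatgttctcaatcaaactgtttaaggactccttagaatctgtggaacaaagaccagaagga
In Csn1s1 the match TTCTTAGAA begins at position -100 from the start, and in Csn2 the match TTCTTGGAA begins at position -93. The upstream window of Csn1s2a holds no match, while TTCTTAGAA begins at position 21 after its start. Of 32851 promoters of the same length in the RefSeq table, 2306 (7.02%) hold the motif. These matches describe the sequence and were not tested as sites.

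Csn1s1 was high in all 7 placebo glands with a later tumor, from 10.89 to 13.72 with a median of 12.76 (RMA values, log2). The 3 placebo glands without a later tumor had 7.90, 6.52 and 8.19 (animals 3, 5 and 6). The tamoxifen glands with a later tumor had 7.27, 10.14 and 10.64 (animals 1, 2 and 10), and the 7 without had 6.80 to 8.22 with a median of 7.35. No gland lay between 8.22 and 10.14. The 9 glands above that gap were the 7 placebo glands and 2 of the 3 tamoxifen glands with a later tumor, and tamoxifen animal 1 was the gland with a later tumor below it.

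Csn2 had the same high glands but a less clean break. In placebo glands with a later tumor it ran from 9.23 to 14.13 with a median of 13.44, and animal 2 was the low one. Placebo glands without a later tumor had 9.45, 5.53 and 7.26, so that animal 3 of this group lay above animal 2 of the other. In tamoxifen glands with a later tumor Csn2 was at 5.56, 9.58 and 11.96, and in those without it was at 5.18 to 7.32 with a median of 5.72. The highest Csn2 value, 14.13 in placebo animal 9, was close to the brightest probe sets of any array, 14.37 to 14.55.

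Csn1s2a followed Csn2 gland by gland. Placebo glands with a later tumor ran from 7.51 (animal 2) to 13.97 (animal 9) with a median of 12.71, and placebo glands without had 7.79, 5.08 and 5.49. Tamoxifen glands with a later tumor had 4.81, 8.49 and 10.85, and the 7 without ran from 4.88 to 6.02 with a median of 5.12. All 7 of the latter were below the filter level of 6.85, so differences among them are among dim values.

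Csn3 was above the filter level in all 20 glands and spanned 3.44 log2 units, against 7.20 for Csn1s1, 8.94 for Csn2 and 9.16 for Csn1s2a. It ran from 11.86 to 14.03 (median 13.08) in placebo glands with a later tumor and had 12.09, 10.82 and 11.63 in those without. Tamoxifen glands with a later tumor had 11.38, 12.29 and 12.30, and those without ran from 10.59 to 11.72 (median 10.97). Here the placebo groups overlapped: placebo animal 4, with a later tumor, had 11.86, below the 12.09 of animal 3.

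Csn1s2b was at 9.62 in placebo animal 9 and between 4.78 and 5.22 in the other 19 glands. The gland that held it was also the highest of the 20 for Csn1s1, Csn2, Csn1s2a and Csn3. Placebo animals 7 and 8, whose Csn2 (14.04 and 13.91) was near that of animal 9, had 5.12 and 5.15 of Csn1s2b, within the range of the other glands.

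**Figure D1:**
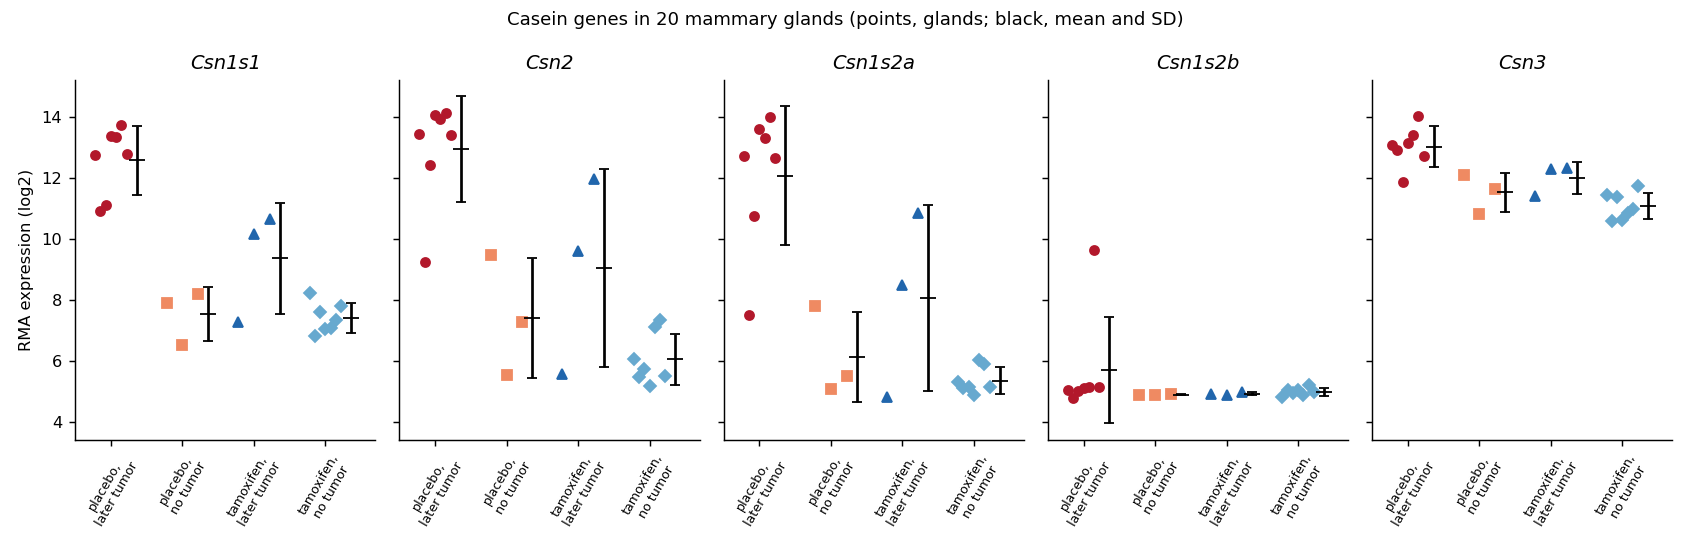
RMA expression (log2) of the main probe set of each casein gene in 20 glands, by treatment and later outcome. Points are single glands, and black marks give the mean and SD of each group (7, 3, 3 and 7 glands). Csn1s1 leaves the range from 8.22 to 10.14 empty, and Csn1s2b is raised in 1 gland.

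The order of the group means was the same for Csn1s1, Csn2, Csn1s2a and Csn3: placebo with a later tumor, tamoxifen with a later tumor, placebo without and tamoxifen without. For Csn1s1 the means were 12.56 ± 1.13 (SD, n = 7), 9.35 ± 1.82 (SD, n = 3), 7.54 ± 0.89 (SD, n = 3) and 7.41 ± 0.49 (SD, n = 7). For Csn2 they were 12.94 ± 1.73, 9.03 ± 3.24, 7.41 ± 1.97 and 6.05 ± 0.84, with the same n. Csn1s2a had 12.07 ± 2.26, 8.05 ± 3.04, 6.12 ± 1.46 and 5.35 ± 0.43, and Csn3 had 13.02 ± 0.66, 11.99 ± 0.53, 11.51 ± 0.64 and 11.07 ± 0.44. No 2 neighbours in this order passed the test for any of the 4 genes (limma, Benjamini-Hochberg over 12499 genes, adjusted p from 0.557 to 1). The smallest of these values, 0.557, was that of Csn1s1 between the groups with a later tumor.

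The first comparison set the 10 glands of animals with a later tumor against the 10 without. Csn1s1, Csn2, Csn1s2a and Csn3 were all higher with a later tumor and all passed the test by limma, 4 of 4 tested, where 0.232% of all genes tested were called in either direction. By ordinary least squares, without variance moderation, 0 of 4 passed (adjusted p = 0.0664, 0.0792, 0.0792 and 0.0804 in the same order). The difference was 4.15 ± 0.61 (log2, SE) for Csn1s1 (adjusted p = 0.0123), 5.31 ± 0.91 for Csn2 (0.0239), 5.28 ± 0.92 for Csn1s2a (0.0239) and 1.51 ± 0.27 for Csn3 (0.0246). By p the 4 genes ranked 1, 4, 6 and 9 of 12499. The no-tumor means of Csn2 and Csn1s2a, 6.46 and 5.58, lay below the filter level, so their folds (39.7 and 38.9) are uncertain in size. No casein separated the 2 outcomes fully, since tamoxifen animal 1 had a no-tumor level of each. Without placebo animals 7, 8 and 9, Csn1s1 stayed past the threshold (3.35) and the others had an adjusted p of 0.0819, with differences of 4.34, 4.10 and 1.16. The call count also dropped to 1 or 2 when 1 of 7 single animals was left out (placebo 1, 5 or 8, or tamoxifen 4, 6, 7 or 9), whereas Csn1s1 was called in all 20 such fits (adjusted p from 1.59e-05 to 0.039).

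Tamoxifen glands were compared with placebo glands, 10 against 10. Differences were -3.06 ± 0.86 for Csn1s1, -4.34 ± 1.13 for Csn2, -4.12 ± 1.17 for Csn1s2a and -1.22 ± 0.33 for Csn3 (log2, SE), lower with tamoxifen, and adjusted p ran from 0.129 to 0.147. By limma 0 of 4 were called, where 0.008% of all genes were called, and 4 of 4 had an unadjusted p under 0.05 (13.9% of all genes). By ordinary least squares 0 of 4 were called. The count was 3 without placebo animal 5 and 1 without placebo animal 6, while calls over all genes ran from 0 to 110 over left-out animals. The treatments overlapped for every casein. For Csn2, Csn1s2a and Csn3 some placebo glands with a later tumor were also below a tamoxifen gland, such as animal 2 for Csn2 (9.23) and animal 4 for Csn3 (11.86).

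With treatment in the model, the outcome differences were 3.48 ± 0.57 for Csn1s1 (adjusted p = 0.0703), 4.26 ± 0.83 for Csn2 (0.128), 4.32 ± 0.88 for Csn1s2a (0.182) and 1.21 ± 0.26 for Csn3 (0.182). They kept ranks 1, 4, 6 and 9 by p, but 0 of 4 were called by limma or by ordinary least squares, 4 of 4 had an unadjusted p under 0.05 (9.19% of all genes), and 0% of all genes were called. The count rose to 3 without placebo animal 2 and to 3 without tamoxifen animal 1, while calls over all genes ran from 0 to 6 over left-out animals. With outcome in the model, the treatment differences were -1.67 ± 0.57, -2.64 ± 0.83, -2.39 ± 0.88 and -0.73 ± 0.26 for Csn1s1, Csn2, Csn1s2a and Csn3. Again 0 of 4 were called (adjusted p from 0.578 to 0.598) with 4 of 4 at an unadjusted p under 0.05 (7.41% of all genes), and 0% of all genes were called.

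Within placebo animals, 7 glands with a later tumor were set against 3 without. Csn1s1 differed by 5.03 ± 0.66 (log2, SE), a 32.6-fold difference with no overlap, and passed the test (adjusted p = 0.00404). It was the gene with the smallest p of all 12499, of which 0.008% were called. The share of all genes with no overlap between these groups was not counted. Csn2 (5.53 ± 1.13, adjusted p = 0.125), Csn1s2a (5.95 ± 1.17, 0.125) and Csn3 (1.51 ± 0.36, 0.145) did not pass, and placebo animals 2 and 3 lay in each other's range for Csn2 and Csn1s2a. Without placebo animal 5 the count was 0, and without placebo animal 2 or placebo animal 10 it was 3. Calls over all genes ran from 0 to 60 over left-out animals. Without placebo animals 7, 8 and 9 the difference of Csn1s1 was 4.34 (adjusted p = 0.0517). With the animal's number within its outcome, taken from the labels, as a block it was 4.81 (0.202). With the pan-epithelial mean as a covariate it was 3.53 (0.988).

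Within tamoxifen animals, 3 glands with a later tumor against 7 without gave 1.94 ± 0.66 for Csn1s1, 2.99 ± 1.13 for Csn2, 2.70 ± 1.17 for Csn1s2a and 0.92 ± 0.36 for Csn3 (log2, SE). Here 0 of 4 passed (adjusted p = 1 each by limma, 0 by ordinary least squares, 4 at an unadjusted p under 0.05, as for 2.1% of all genes), where 0.008% of all genes were called. For Csn1s1, Csn2 and Csn1s2a, animals 2 and 10 lay above all 7 glands without a later tumor and animal 1 lay among them. The test of whether the outcome difference was the same under both treatments gave an interaction of -3.08 ± 0.93 for Csn1s1, -2.54 ± 1.60 for Csn2, -3.25 ± 1.65 for Csn1s2a and -0.59 ± 0.51 for Csn3. None passed (adjusted p = 0.938 each, 0 of 4 by limma and by ordinary least squares, 1 of 4 at an unadjusted p under 0.05, as for 4.52% of all genes), with 0% of all genes called, so a different outcome effect under the 2 treatments was not shown.

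Among animals with a later tumor, the 3 tamoxifen glands had lower means than the 7 placebo glands, with differences of -3.21 ± 0.66 (log2, SE) for Csn1s1, -3.91 ± 1.13 for Csn2, -4.02 ± 1.17 for Csn1s2a and -1.03 ± 0.36 for Csn3. By limma and by ordinary least squares 0 of 4 passed (adjusted p = 0.557 for Csn1s1 and 0.703 for the others), 4 had an unadjusted p under 0.05 (7% of all genes), and 0% of all genes were called. All 3 tamoxifen values of Csn1s1 lay under the lowest placebo value, 10.89, and the share of all genes that separate so was not counted. Among animals without a later tumor the differences were -0.13 ± 0.66 for Csn1s1, -1.37 ± 1.13 for Csn2, -0.77 ± 1.17 for Csn1s2a and -0.44 ± 0.36 for Csn3. Of these 0 of 4 passed (adjusted p = 0.999 each, 0 by ordinary least squares, 0 at an unadjusted p under 0.05, against 5.26% of all genes), where 0.064% of all genes were called. The sign for Csn1s1 depended on single glands: it was 0.06 without placebo animal 3 and 0.20 without placebo animal 6.

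The groups that differ in both treatment and outcome stood farthest apart. In the 7 tamoxifen glands without a later tumor, against the 7 placebo glands with one, Csn1s1 fell by 5.15 ± 0.51 (log2, SE, 35.5-fold, adjusted p = 2.67e-05) and Csn2 by 6.89 ± 0.87 (119-fold, 0.000358). Csn1s2a fell by 6.72 ± 0.91 (105-fold, 0.000629) and Csn3 by 1.95 ± 0.28 (3.85-fold, 0.000759). The tamoxifen means of Csn2 (6.05, with 2 of 7 glands above the filter level) and Csn1s2a (5.35, with 0 of 7) were dim, so their folds are uncertain in size. All 4 were called, where 4.63% of all genes tested were called. For each of the 4 the lowest placebo gland was above the highest tamoxifen gland, and the share of all genes that separate so was not counted. All 4 calls held in each of the 20 fits that left out 1 animal, in which calls over all genes ran from 295 to 846. The reverse pairing, 3 tamoxifen glands with a later tumor against 3 placebo glands without, gave 1.82 ± 0.78 for Csn1s1, 1.62 ± 1.33 for Csn2, 1.93 ± 1.38 for Csn1s2a and 0.48 ± 0.43 for Csn3. There 0 of 4 passed (adjusted p = 1 each, 0 by ordinary least squares, 1 at an unadjusted p under 0.05, as for 2.7% of all genes) and 0% of all genes were called.

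The labels number the animals of each treatment from 1 to 10 without saying what a number stands for. Among numbers 1 to 5 the outcome difference was 3.02 for Csn1s1, 3.60 for Csn2, 3.17 for Csn1s2a and 1.05 for Csn3 (log2, 5 glands against 5), and each of these overlapped. Among numbers 6 to 10 it was 5.28, 7.02, 7.39 and 1.96, and for each the 5 glands with a later tumor lay above the 5 without. The share of all genes that separate in this way was not counted. Placebo animals 7, 8 and 9 are all among numbers 6 to 10, and without them (2 glands against 5) the differences there were 4.21, 6.20, 6.26 and 1.36. The split into numbers 1 to 5 and 6 to 10 was made here and is not in the labels. Whether the 2 sets of numbers differed was not tested. With the 2 sets of numbers as a block beside treatment, Csn1s1, Csn2 and Csn1s2a passed the outcome test by limma (adjusted p = 0.00732, 0.0316 and 0.0423). The labels also number the animals of each outcome from 1 to 10. With this outcome number as the block beside treatment, Csn1s1, Csn2 and Csn1s2a did not pass by limma (adjusted p = 0.263, 0.253 and 0.276).

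The 11 probe sets were also tested without a filter among all 45101. For the outcome 6 of 11 were called, where 0.0333% of all probe sets were called, and for treatment 0 of 11, where 0.00222% were called. Csn2 probe set 1420370_s_at differed by 4.33 ± 0.75 (log2, SE, adjusted p = 0.0461) and ran from 8.00 to 13.34 in placebo glands with a later tumor and from 5.67 to 6.66 in tamoxifen glands without. Csn1s2a probe set 1420633_a_at differed by 5.39 ± 0.93 (0.0461), close to the 5.28 of the main one, 1436170_a_at. The other 4 called probe sets were the main ones of Csn1s1 (1420627_a_at, adjusted p = 0.0192), Csn2 (1420369_a_at, 0.0461), Csn1s2a (0.0461) and Csn3 (1419735_at, 0.0498). Without placebo animal 9 the count was 1 and without animals 7, 8 and 9 it was 0.

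The remaining 3 probe sets of Csn1s2a were dimmer than its main one, and 1 of them was flat. Probe sets 1438694_at and 1455579_at were raised in few glands: placebo animal 7 had 9.62 and 8.80, animal 9 had 7.96 and 7.32, and animal 8 had 7.02 and 5.73. Placebo animals 1 and 10 had 5.84 and 5.85 on the first of them, against 4.35 to 4.80 in the 15 other glands, placebo animals 2 and 4 among them. On the second they had 5.31 and 5.34, against 4.07 to 4.30 in the 15 other glands. Placebo animals 1, 7, 8, 9 and 10 were also the highest on the main probe set, at 12.64 to 13.97, with the next gland at 10.85. These probe sets differed by 1.43 ± 0.52 (adjusted p = 0.267) and 1.21 ± 0.46 (0.297) for the outcome, and by 0.45 and 0.39 without placebo animals 7, 8 and 9. Probe set 1436488_at stayed between 4.50 and 4.80 in all 20 glands, including those in which 1436170_a_at was above 13. The second Csn3 probe set, 1451851_a_at, was dimmer, from 5.80 to 8.71, and differed by 0.80 ± 0.25 (0.206), or 0.38 without those 3 animals. Csn1s2b (1418221_at) differed by 0.51 ± 0.43 (0.712), and by 0.05 without placebo animal 9. Which transcripts each probe set reads was not tested.

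**Figure D2:**
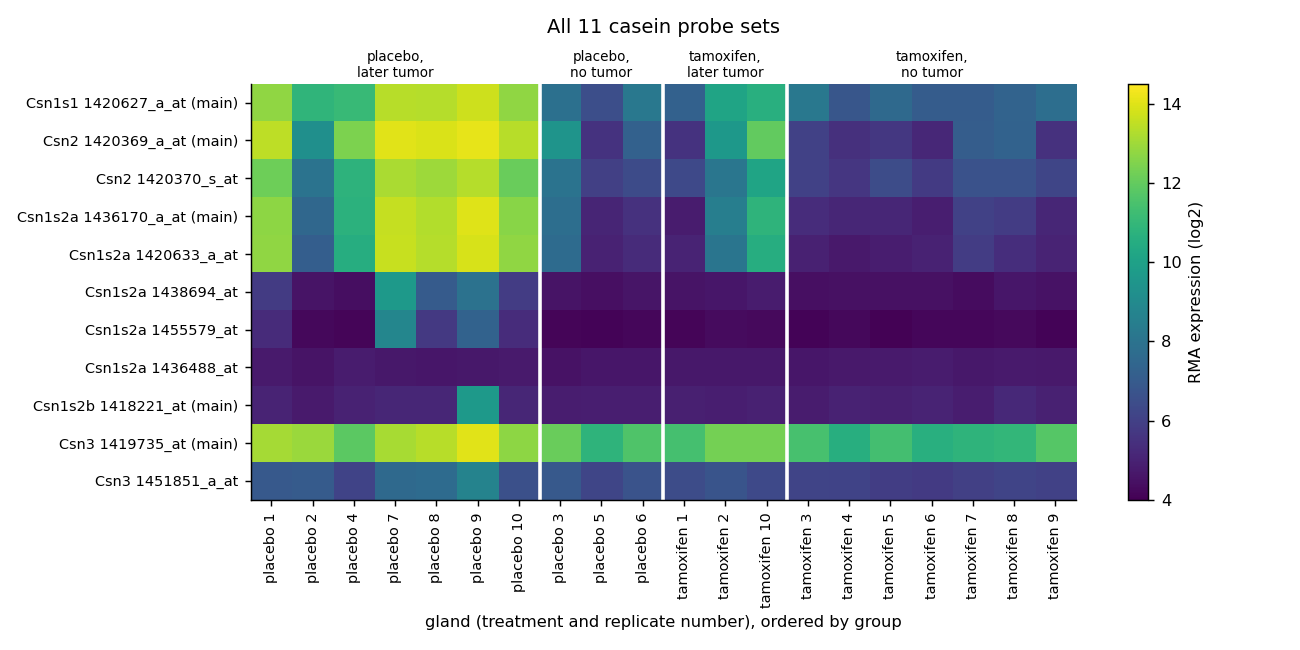
RMA expression (log2, colour) of the 11 casein probe sets (rows) in 20 glands (columns), ordered by group, with white lines between groups. Placebo animals 3 (no tumor) and 2 (later tumor) have like colours for Csn2 and Csn1s2a, tamoxifen animal 1 has the colours of the no-tumor glands, and Csn1s2a probe set 1436488_at is flat.

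How closely the caseins moved together was measured within the 2 groups of 7 glands, with exact permutation tests (5040 arrangements, two-sided) adjusted over the 20 pairs of the 5 genes. In placebo glands with a later tumor, Csn2 and Csn1s2a had a Pearson r of 0.990 and a Spearman rho of 1 (n = 7, exact permutation p = 0.000198 and 0.000397, adjusted 0.00265 and 0.00794). Csn1s1 followed Csn1s2a (r = 0.927, rho = 0.964) and Csn2 (r = 0.866, rho = 0.964), each with an exact permutation p of 0.000397 for r and 0.00278 for rho (adjusted 0.00265 and 0.0111). Without the 2 glands farthest from the median these 3 r were 0.978, 0.988 and 0.977. Pairs with Csn3 had r from 0.373 to 0.756 and did not pass by r or by rho, although rho ran from 0.786 to 0.857. For Csn1s2b, which rests on animal 9, 1 pair passed by rho alone, that with Csn1s1 (r = 0.506, exact permutation p = 0.287, adjusted 0.52, and rho = 0.893, exact permutation p = 0.0123, adjusted 0.041).

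In tamoxifen glands without a later tumor the pairs were fewer. Csn2 and Csn1s2a again moved together (r = 0.981, rho = 0.964, n = 7, exact permutation p = 0.00139 and 0.00278, adjusted 0.00694 and 0.0111), and r was 0.940 without the 2 farthest glands. Csn1s1 and Csn3 did so too (r = 0.881, rho = 0.964, exact permutation p = 0.00952 and 0.00278, adjusted 0.0381 and 0.0111), with r of 0.976 without the 2 farthest glands. The 4 cross pairs of Csn1s1 or Csn3 with Csn2 or Csn1s2a had r from -0.10 to -0.02 and rho from 0.29 to 0.39, and did not pass by either. Without the 2 farthest glands, r was 0.58 and 0.59 for the pairs of Csn3, and -0.29 and -0.31 for those of Csn1s1. In this group Csn1s2a was above the filter level in 0 of 7 glands and Csn2 in 2 of 7, so pairs with either rest largely on dim values. Whether a pair's correlation differed between the 2 groups was not tested. Outside this group, placebo animal 3 was close to placebo animal 2 in Csn2 (9.45 and 9.23) and Csn1s2a (7.79 and 7.51) but had 7.90 of Csn1s1 against 10.89.

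**Figure D3:**
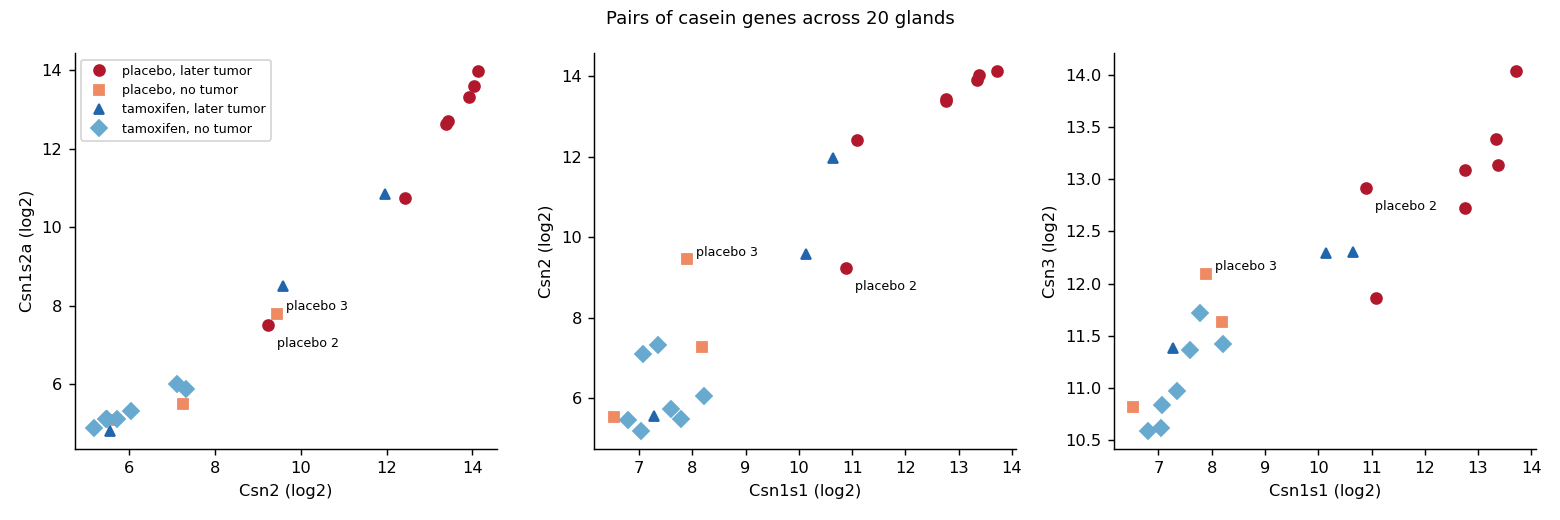
RMA expression (log2) of Csn1s2a against Csn2, Csn2 against Csn1s1 and Csn3 against Csn1s1, with 1 point per gland and the 4 groups by colour and shape. Csn2 and Csn1s2a rise together over the glands, whereas placebo animals 2 and 3 share a Csn2 level (9.23 and 9.45) at different Csn1s1 levels (10.89 and 7.90).

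The neighbours of the caseins on chromosome 5 did not share these levels. Between the outermost caseins, Prr27 was at 6.95 to 7.20 in all glands (difference 0.02 for the outcome, adjusted p = 0.85), and Odam, which encodes a protein of the enamel organ, was at 4.59 to 4.95 (0.02). Sult1e1, an oestrogen sulfotransferase before Csn1s1, was at 4.19 to 4.55 (0.04). Cabs1 (5.52 to 5.91) and Smr3a (4.88 to 5.22), which follow Csn3, differed by 0.02 and 0.00. Of these 5 genes only Prr27 passed the filter on dim values.

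**Figure D4:**
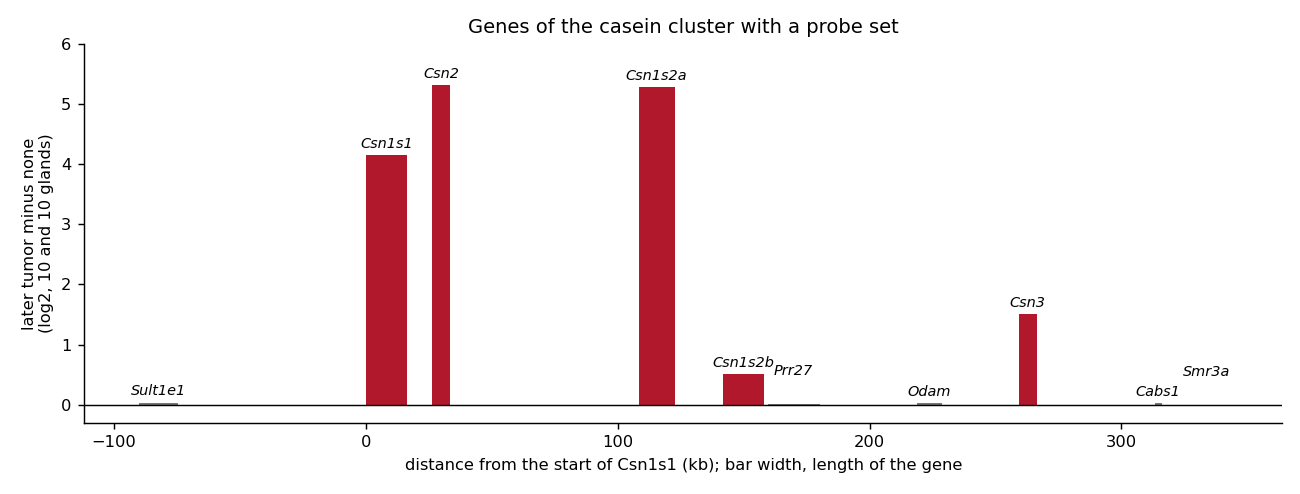
Outcome difference (later tumor minus none, log2, 10 and 10 glands) of each gene with a probe set in and beside the casein cluster, against its distance from the start of Csn1s1 (kb), with bar width equal to gene length. The 5 casein genes (red) differ by 0.51 to 5.31 and the 5 neighbours (grey) by at most 0.04.

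Of 15 casein regulators tested, 1 rose with a later tumor and 14 did not pass, where 0.232% of all genes were called, with a median difference of 0.08 (log2) against -0.01 over all genes tested. The one that rose was Elf5, a transcription factor of alveolar cells (1.71 ± 0.36, SE, adjusted p = 0.0456). Its mean was 10.46 ± 1.00 (SD, n = 7) in placebo glands with a later tumor, and the 3 tamoxifen glands with one had 8.96, 9.11 and 8.94. Glands without had means of 8.67 ± 0.68 (n = 3) in placebo and 8.15 ± 0.47 (n = 7) in tamoxifen animals. Placebo animals 7, 8 and 9 had 11.90, 11.71 and 10.70 of Elf5, against 9.46 to 10.03 in the other placebo glands with a later tumor. The Elf5 outcome difference without these animals is not given here. Stat5a differed by 0.25 ± 0.08 (0.138), Nfib, a nuclear factor that binds milk protein genes, by 0.18 ± 0.09 (0.317), and Socs2, a feedback inhibitor of the prolactin receptor pathway, by 0.26 ± 0.13 (0.336). Between the groups of 7, Elf5 fell by 2.31 ± 0.35 (adjusted p = 0.00116) and Stat5a fell by 0.36 ± 0.09 (0.028) in tamoxifen glands without a later tumor, and the other 13 did not pass, where 4.63% of all genes were called. The gene of the prolactin receptor, Prlr, was not analysed here.

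Genes that modify caseins or load milk with calcium and phosphate were tested for 5 members, and 0 passed for the outcome by limma (2 at an unadjusted p under 0.05, median difference 0.11), against 0.232% of all genes called and 16.5% at an unadjusted p under 0.05. Fam20a, a pseudokinase that activates the casein kinase Fam20c, differed by 1.34 ± 0.32 (adjusted p = 0.0696), Atp2c1, a Golgi calcium pump, by 0.11 ± 0.05 (0.24) and Slc34a2, a phosphate transporter, by 0.15 ± 0.08 (0.366). Fam20c itself, which phosphorylates caseins in the secretory pathway, differed by -0.05 ± 0.16 (0.911). Between the groups of 7, Fam20a fell by 1.81 ± 0.33 (adjusted p = 0.00506) and the other 4 did not pass (4.63% of all genes called).

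Of 14 other milk genes tested, 1 rose with a later tumor (0.232% of all genes called), with a median difference of 0.82. Btn1a1, which coats secreted milk fat, rose by 1.54 ± 0.31 (log2, SE, adjusted p = 0.0456). Muc15 (2.21 ± 0.50, 0.059) and Muc1 (0.58 ± 0.14, 0.0762), mucins of the same coat, Wfdc18, a secreted relative of whey acidic protein (1.93 ± 0.48, 0.0772), and Lalba, the lactose synthase subunit alpha-lactalbumin (0.97 ± 0.31, 0.132), did not pass. Wap, the whey acidic protein (1.62 ± 0.71, 0.262), was at 13.93 in placebo animal 9, 11.16 in animal 10 and 9.16 in animal 7, and at 7.62 or less in the other 17 glands, although Csn2 was above 12 in 6 glands. In tamoxifen glands without a later tumor, 7 of the 14 fell against placebo glands with one (4.63% of all genes called), among them Btn1a1 (-2.11 ± 0.30, adjusted p = 0.000703) and Muc15 (-2.94 ± 0.48, 0.00182).

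The genes most like the caseins were ranked by the Pearson r, over 20 glands, with the mean of the centred values of Csn1s1, Csn2 and Csn1s2a. They were Slc35f3 (r = 0.904), Muc15 (0.878), Plet1 (0.876), Aldoc, a glycolytic aldolase (0.875), Tead2 (0.873), Folr1, a folate receptor (0.868), Fam20a (0.866), Itga8 (0.862), Tgfa (0.862) and Slc28a3, a nucleoside transporter (0.861). Without placebo animals 7, 8 and 9 these r ran from 0.763 to 0.893. The glands fall into separate ranges of Csn1s1, so these r describe likeness and carry no test. Tgfa, the gene of the transgene's product, was at 8.49 to 10.27 in placebo glands with a later tumor and at 7.64 to 8.41 in the other 13. Whether its probe set reads the transgene was not tested.

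Because whole glands were measured, fewer secretory cells and less casein RNA per cell cannot be told apart. Markers of epithelium moved with the caseins: the mean of 14 pan-epithelial genes was 9.06 to 10.12 (log2) in placebo glands with a later tumor, 8.81 to 9.07 in tamoxifen glands with one, 8.20 to 8.92 in placebo and 8.34 to 9.17 in tamoxifen glands without. For the outcome 0 of the 14 passed by limma, 10 had an unadjusted p under 0.05 (16.5% of all genes) and 13 were higher (median 0.78), with Epcam at 1.04 ± 0.22 (adjusted p = 0.0528) and Krt18 at 0.81 ± 0.19 (0.062). In tamoxifen glands without a later tumor 10 of the 14 fell against placebo glands with one, where 4.63% of all genes were called. With the pan-epithelial mean as a covariate, the outcome differences were 2.38 for Csn1s1, 3.13 for Csn2, 3.01 for Csn1s2a and 0.71 for Csn3 (adjusted p = 0.966 each). Between the groups of 7, Csn1s1 then differed by -3.79 (0.0282), Csn2 by -5.09 (0.278), Csn1s2a by -4.87 (0.392) and Csn3 by -1.08 (0.554). Within each group of 7 the Pearson r of the 4 caseins with this mean was 0.17 to 0.73, and 0 of the 8 passed (exact permutation tests, n = 7, adjusted p from 0.814 to 0.838 over 16 correlations, with rho from 0.357 to 0.786 and adjusted p from 0.384 to 0.79).

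**Figure D5:**
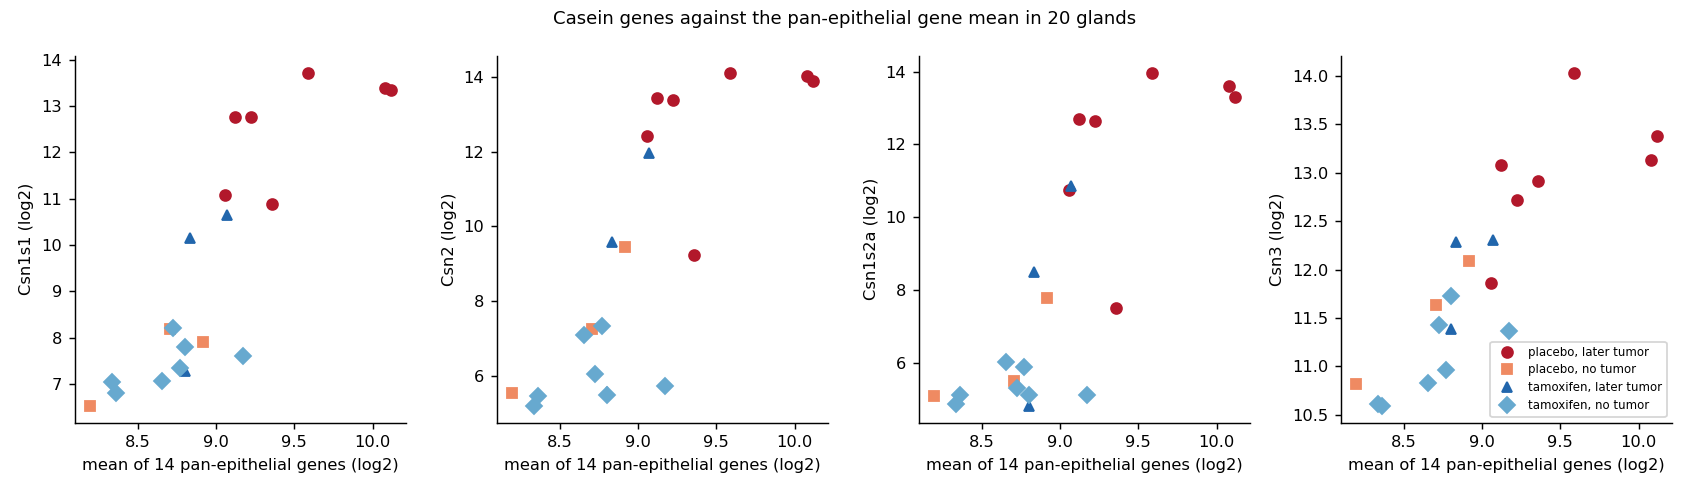
RMA expression (log2) of Csn1s1, Csn2, Csn1s2a and Csn3 against the mean log2 value of 14 pan-epithelial genes, 1 point per gland, with groups by colour and shape. At means from 8.8 to 9.2 Csn1s1 ranges from about the no-tumor level to above 12.

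Markers of other tissue components moved with the 2 groups of 7 as well. In tamoxifen glands without a later tumor 7 of 11 skeletal muscle genes and 7 of 7 T cell genes rose against placebo glands with one (4.63% of all genes called), with group ranges of the list mean of 7.62 to 11.14 against 5.99 to 8.32 for muscle and 9.16 to 10.32 against 8.90 to 9.41 for T cells. Ckm rose by 2.12 ± 0.55 (adjusted p = 0.0343) and Cd3e by 0.46 ± 0.08 (0.00506). Of 8 basal and myoepithelial genes 2 fell, and 0 of 7 adipocyte and 0 of 5 B cell genes passed by limma (1 and 4 at an unadjusted p under 0.05, as for 20.4% of all genes). For the outcome 0 members of these 5 lists passed by limma, with 7 T cell, 6 basal and myoepithelial, 3 B cell, 2 muscle and 0 adipocyte genes at an unadjusted p under 0.05, against 16.5% of all genes. Their part in the casein differences was not tested.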

How the data were processed

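RNA of 20 mammary glands was read on Affymetrix arrays, 1 per animal. The deposited values are log2 expression per probe set, which the authors made with RMA (named in the submitters' processing notes). Software version and build: not given in the sources used here. Values ran from 3.38 to 14.55, array medians from 6.82 to 6.89 and pairwise Pearson r from 0.977 to 0.997, with 0 identical pairs. The number of arrays limits the precision. Groups came from the labels, which number animals as biological replicates.

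Symbols came from the platform table, and 34754 of 34958 probe sets with 1 symbol were matched by Entrez ID. The gene-wise tests did not use the 932 that carry more than 1 symbol or the 9211 unnamed ones, and took the brightest probe set on average for each gene. limma 3.58.1 in R 4.3.3 (lmFit, eBayes) was fitted two-sided to 12499 genes (Benjamini-Hochberg adjusted p under 0.05). The 2 factors were fitted alone and together, and a model of the 4 groups gave the other comparisons. "Called" and "passed" mean an adjusted p under the threshold, "rose" and "fell" are used for such genes, and a fold is 2 raised to the absolute log2 difference. The fit was tested on simulated data. Shares of all genes called are those of the limma fits. Correlations were computed within groups of 7, since the glands fell into separate ranges of Csn1s1 over all 20.

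Named from the lists were up to 4 genes with the smallest outcome p, with Elf5, Stat5a, Wap, Lalba and Btn1a1, and for markers Epcam, Krt18, Krt14, Adipoq, Ckm, Cd3e and Cd79a. Cd79a differed by -0.42 for the outcome (adjusted p = 0.219). The members and lists were chosen with earlier results of these data known. Alternatives covered scaling, the filter, the choice of probe set, variance moderation, array weighting, blocks, the epithelial covariate and left-out animals.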

Additional observations from a re-analysis of the deposited data

Results flagged for a closer look

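Of 66 groups of casein values examined (11 probe sets), 8 held a gland far from the rest by Dixon's ratio, where chance flags about 1 in 20 independent groups. The groups share glands, and probe sets of 1 gene repeat each other, so this rate does not measure an excess. All 8 flags came from placebo animals 2, 3 and 9. In placebo glands with a later tumor, Csn2 (1420369_a_at) was lowest in animal 2, at 9.23, with the next at 12.43. Among the 10 glands without a later tumor, placebo animal 3 was flagged as the highest on 4 probe sets. These were Csn2 at 9.45 and, on 1420370_s_at, 7.98, and Csn1s2a at 7.79 and, on 1420633_a_at, 7.69. Csn1s2b was at 9.62 in placebo animal 9, with the next gland at 5.15, and this 1 value stood apart in 3 of the groups, placebo with a later tumor, all placebo and all with a later tumor.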

How the results depend on the processing

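All 4 tested caseins were called for the outcome. The count was 0 without variance moderation, 0 with the pan-epithelial covariate and 1 without placebo animals 7, 8 and 9, and leaving out each animal gave 1 to 4. For treatment 0 became 2 with the replicate block (Csn2 and Csn3), with 0 to 3 over left-out animals. Treatment calls over all genes ran from 0 to 235 under such other settings and from 0 to 110 over left-out animals, against 1. For the outcome adjusted for treatment 0 became 3 with the block of numbers 1 to 5 and 6 to 10, with 0 to 3 over left-out animals. In that comparison calls over all genes ran from 0 to 6 under other settings and from 0 to 6 over left-out animals, against 0. Within placebo 1 became 0 with the block of outcome numbers, 0 with the pan-epithelial covariate and 0 without placebo animals 7, 8 and 9. It ran from 0 to 3 over left-out animals. Between the groups of 7, 4 became 1 with the covariate. There calls over all genes ran from 6 to 1647 under other settings and from 295 to 846 over left-out animals, against 579. Over all probe sets the outcome count of 6 became 0 without placebo animals 7, 8 and 9 and 1 without animal 9, both chosen after seeing the data, as was the value of numbers 6 to 10 without those 3 animals.

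Signs turned for values that were not called. Among animals without a later tumor, Csn1s1 (-0.13) was 0.0852 with the replicate block and ran from -0.63 to 0.20 over left-out animals (0.06 without placebo animal 3, 0.20 without animal 6), and Csn1s2a (-0.77) ran from -1.29 to 0.0683 (without placebo animal 3). The interaction of Csn3 (-0.59) was 0.13 with the covariate, and Csn1s2b between treatments (-0.49) was 0.0205 without placebo animals 7, 8 and 9. The cause of these changes was not tested. Over all genes, outcome calls ran from 1 to 118 over left-out animals and from 0 to 45 under other settings, against 29. Replicate numbers were not taken to pair animals, since the labels do not say what a number stands for. Deviations of same-numbered animals had r from -0.10 to 0.59 for treatment numbers (4 of 10 over 0.1). For outcome numbers r ran from -0.22 to 0.32 (1 of 10 over 0.1). Of 20 animals, 7 correlated best with their own treatment number and 1 with its own outcome number. Whether animals of the same treatment number share structure was not tested, and some fits with a number as a block are given beside the main ones. That block was the outcome number in comparisons of outcome and the treatment number in all others. With 3 glands in 2 groups and values of Csn1s2a, Csn1s2b and Csn2 near background in the no-tumor glands, small differences there were not measurable.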
